A study of Homo sapiens with 3 samples.

Results

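The AP-1 transcription factor genes followed here were FOS, FOSB, FOSL1, FOSL2, JUN, JUNB, JUND, ATF3, BATF3 and MAFF. They were taken by symbol, and all 10 were found among the 22435 gene symbols that the probes of the array could be matched to. Together they had 13 of the 58201 probes that are no controls, 4 of them for ATF3 and 1 for each other gene. The cells were A549, an established human lung adenocarcinoma line, grown in a medium that for all conditions also held nicotinamide, troglitazone and zinc sulfate. The study's methods name DMEM with serum and antibiotics for these cells and do not name those additions. The control received 0.1% DMSO, and the treated cells received 60 μg/mL cordycepin or 100 μg/mL cordyceps, each for 48 h. Cordycepin is an adenosine analog that lacks the 3′ hydroxyl group. Whether the treated cells also received DMSO was not given in the sources used here. RNA of each condition was hybridized to 1 array, so each comparison is between 2 arrays, with no replicate error, no test and no p-value.

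AP-1 is a family of dimers of basic leucine zipper (bZIP) proteins. JUN proteins pair with each other or with FOS proteins, whereas FOS proteins need a JUN partner to bind DNA, and the ATF, BATF and small MAF proteins extend the choice of partners. Many of these genes respond rapidly to growth factors and stress through the ERK, JNK and p38 kinases, several of their transcripts are short-lived, and their targets include genes of proliferation, inflammation and invasion. The study itself followed JNK signaling in cordycepin-treated lung cancer cells, and JNK phosphorylates JUN protein. The arrays measured transcripts and not phosphorylation.

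The share of probes well above background was 49.0%, 47.5% and 42.1% for control, cordycepin and cordyceps, and no spot was saturated. One corner of the cordyceps array (row 241 and beyond, column 83 and beyond) stood apart, since the local background was outlying at 11.2% of the spots there and at 0% in the same corner of the other arrays. All 9 marker genes of A549 epithelium were detected on every array. Of 10 markers of cells that a culture should lack, 5, 4 and 3 were detected on the control, cordycepin and cordyceps arrays, PTPRC, CD14 and COL1A1 on each of them. In such a bulk sample, fewer cells with a transcript and less transcript per cell cannot be told apart.

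The upstream sequences of 4 members are shown as examples, from genes that gave called or near-called differences (FOS, ATF3, MAFF) or carry the family name (JUN). FOSB, whose bound was also near the threshold, is not shown, nor is a second window of ATF3 and of MAFF. Each is the 250 bases before a RefSeq transcript start in GRCh38.p14, written 5′ to 3′ on the strand of the gene. Capitals mark matches to 4 motifs. The cyclic AMP response element (CRE) was searched as TGACGTCA. Its half-site, which lies within it, was searched as TGACG. The JUN-type site was searched as TGACATCA, and these motifs were searched on both strands. The TATA box was searched as TATAAA, on the strand of the gene only. The JUN-type site and the half-site were added to the search after the sequences had been seen.
FOS, chr14:75278578-75278827, plus strand: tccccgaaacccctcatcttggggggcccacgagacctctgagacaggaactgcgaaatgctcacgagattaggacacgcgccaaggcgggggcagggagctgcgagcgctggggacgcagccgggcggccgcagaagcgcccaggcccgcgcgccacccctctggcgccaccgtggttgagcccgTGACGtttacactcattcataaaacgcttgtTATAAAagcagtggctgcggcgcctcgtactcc
JUN, chr1:58784048-58784297, minus strand: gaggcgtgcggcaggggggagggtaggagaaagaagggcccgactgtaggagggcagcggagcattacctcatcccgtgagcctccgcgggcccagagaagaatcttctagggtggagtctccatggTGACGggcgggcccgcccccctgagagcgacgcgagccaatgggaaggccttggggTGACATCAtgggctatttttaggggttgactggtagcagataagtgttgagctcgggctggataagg
ATF3, chr1:212565157-212565406, plus strand: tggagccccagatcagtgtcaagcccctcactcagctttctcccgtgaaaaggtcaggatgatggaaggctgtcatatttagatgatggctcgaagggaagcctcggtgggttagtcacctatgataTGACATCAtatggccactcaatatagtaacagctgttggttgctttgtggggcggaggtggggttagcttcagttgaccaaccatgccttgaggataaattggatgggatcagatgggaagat
MAFF, chr22:38201744-38201993, plus strand: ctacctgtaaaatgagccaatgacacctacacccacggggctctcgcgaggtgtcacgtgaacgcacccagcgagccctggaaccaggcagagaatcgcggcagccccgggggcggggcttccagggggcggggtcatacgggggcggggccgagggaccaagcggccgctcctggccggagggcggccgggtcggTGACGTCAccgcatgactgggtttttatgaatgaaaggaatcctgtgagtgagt

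In FOS, the TATA box began 33 bases before the start and the half-site 64 bases before it. In JUN and in ATF3, the JUN-type site began 67 and 123 bases before the start. In MAFF, the full CRE began 54 bases before the start. RefSeq windows were matched for 8 of the 10 members, 10 windows in all, and none was matched for FOSL1 or BATF3. The half-site was found in 7 of these 10 windows, against 21.2% of 34943 distinct windows of all genes. It and the JUN-type site were chosen with these sequences in view, so their shares test nothing. The full CRE was found in 2 (JUND and MAFF, against 1.63%), the JUN-type site in 2 (against 2.37%) and the TATA box in 4 (FOS, FOSB, JUNB and a second ATF3 window, against 6.82%). In that ATF3 window TATAAA began 230 bases before the start, against 33, 30 and 31 bases in FOS, FOSB and JUNB. The letters were counted wherever they lay in a window. The AP-1 site itself, TGAGTCA, was in 0 of the 10 windows and in 4.22% of all windows. The CArG box, to which serum response factor binds, and the C/EBP-ATF element TGATGCAA were also in 0 of the 10, against 1.16% and 0.776%. These are matches of letters in short windows and describe no binding. Sites farther than 250 bases before the starts used, or near other starts of these genes, were not searched.

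Levels are processed spot signals in arbitrary intensity units, each with the error that the scanner software estimated for the spot. Ratios are log2 ratios after each array was divided by its own 75th percentile of signal, which was 260.1 for the control, 224 for cordycepin and 260.2 for cordyceps. Over 3356 genes with at least 2 probes detected on all arrays, the spread (robust SD) of 1 probe's log2 ratio was 0.25 for cordycepin against control and 0.20 for cordyceps against control. A gene was called when it differed at least 2-fold by its brightest probe, and neither the software's error nor this spread includes the variation between cultures.

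With cordycepin, ATF3 and FOSL1 were at least 2-fold higher and FOS was at least 2-fold lower than in the control. All 10 genes gave a ratio, so 2 of 10 were called higher, where 5.95% of 15917 genes were, and 1 of 10 lower, where 3.57% were. With cordyceps, ATF3 was called higher and FOS lower. Of the 9 genes that gave a ratio there, 1 was called in each direction, where 4.19% and 3.15% of 15602 genes were. The brightest probes of these genes all lie outside the corner that stood apart. Outside it, 2.66% of 12622 genes were called higher and 3.15% lower. With cordyceps, shares of all genes or probes include that corner unless stated otherwise. The median log2 ratio of the 10 genes was 0.25 with cordycepin against -0.04 for all genes. It was 0.43 with cordyceps, over 9 genes, against -0.10 for all genes. Both comparisons use the same control array, so a low or high control value enters both ratios.

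**Figure D1:**
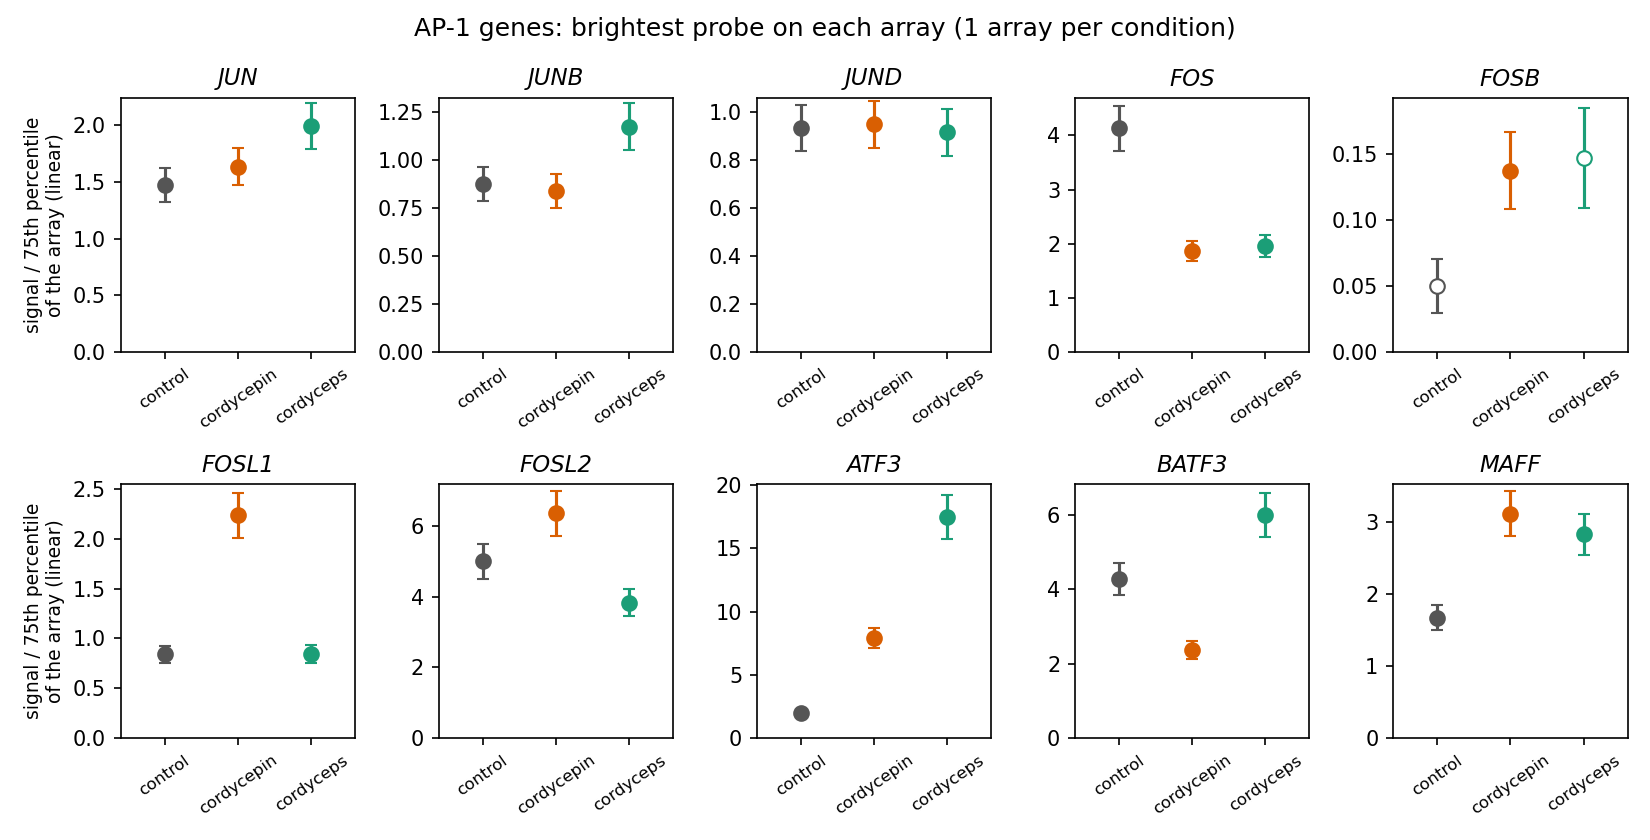
Signal of the brightest probe of each AP-1 gene on the 3 arrays, divided by the 75th percentile of the array (linear axes from 0, one scale per gene). Bars are the error estimated by the scanner software, and open points are not well above background. ATF3 went from 1.99 in the control to 7.90 with cordycepin and 17.5 with cordyceps, and FOS from 4.14 to 1.86 and 1.96.

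Of the FOS genes, FOS itself, the founding member whose transcript is induced within minutes of stimulation and decays rapidly, had a signal of 1076 ± 108 on the control array, 417 ± 42.0 with cordycepin and 509 ± 51.5 with cordyceps. Both treated arrays were below the control by more than these errors. The log2 ratio was -1.15 with cordycepin, 2.22-fold lower, and -1.08 with cordyceps, 2.11-fold lower. Of all genes, 2.44% and 2.50% were as low or lower in the respective comparison. The value with cordyceps lay near the threshold and was -0.81 with median scaling, at which it was no longer called.

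FOSL1 encodes FRA1, a FOS protein that lacks the strong activation domain of FOS and is linked to invasion in epithelial tumors. Its signal was 219 ± 22.5 in the control, 502 ± 50.5 with cordycepin and 220 ± 23.9 with cordyceps. Only the cordycepin array stood out, with a log2 ratio of 1.41, 2.66-fold higher, and 3.01% of all genes were as high or higher. With cordyceps the log2 ratio was 0.0038, well within the spread of 0.20 between probes.

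FOSL2, which encodes the related FRA2, had signals of 1303 ± 130, 1430 ± 143 and 999.7 ± 100 in the control, cordycepin and cordyceps arrays. Its log2 ratios were 0.35 and -0.38, both under the threshold. FOSB, which encodes a FOS protein also induced by growth factors, was near the limit of detection. Its signal was 12.9 and not well above background in the control, 30.8 ± 6.52 and detected with cordycepin, and 38.3 but not well above background with cordyceps. With cordycepin, FOSB was 1.92-fold above the lowest signal detected on the control array, after scaling. This bound leaves out the error of the spot, and the log2 ratio of FOSB was 0.42 with another background correction. No fold can be given for cordyceps.

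The 3 JUN genes stayed under the threshold in both comparisons. JUN, the central partner of FOS proteins and the substrate of JNK, had signals of 383 ± 38.5, 367 ± 37.0 and 519.8 ± 52.4 in the control, cordycepin and cordyceps arrays. After scaling, its log2 ratio was 0.15 with cordycepin and 0.44 with cordyceps. JUNB, which can oppose JUN in some settings, had signals of 227 ± 23.2, 187 ± 19.5 and 305 ± 31.7 and log2 ratios of -0.06 and 0.43. The cordyceps ratios of JUN and JUNB exceeded the spread of 0.20 between probes, and 11.4% and 11.8% of all genes were as high or higher. JUND, which is expressed more steadily than the other JUN genes in many cells, had signals of 243 ± 24.9, 213 ± 22.0 and 239 ± 25.5 and log2 ratios of 0.02 and -0.03. Both JUND ratios, taken after scaling, were within the spread of 0.25 and 0.20 between probes.

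**Figure D2:**
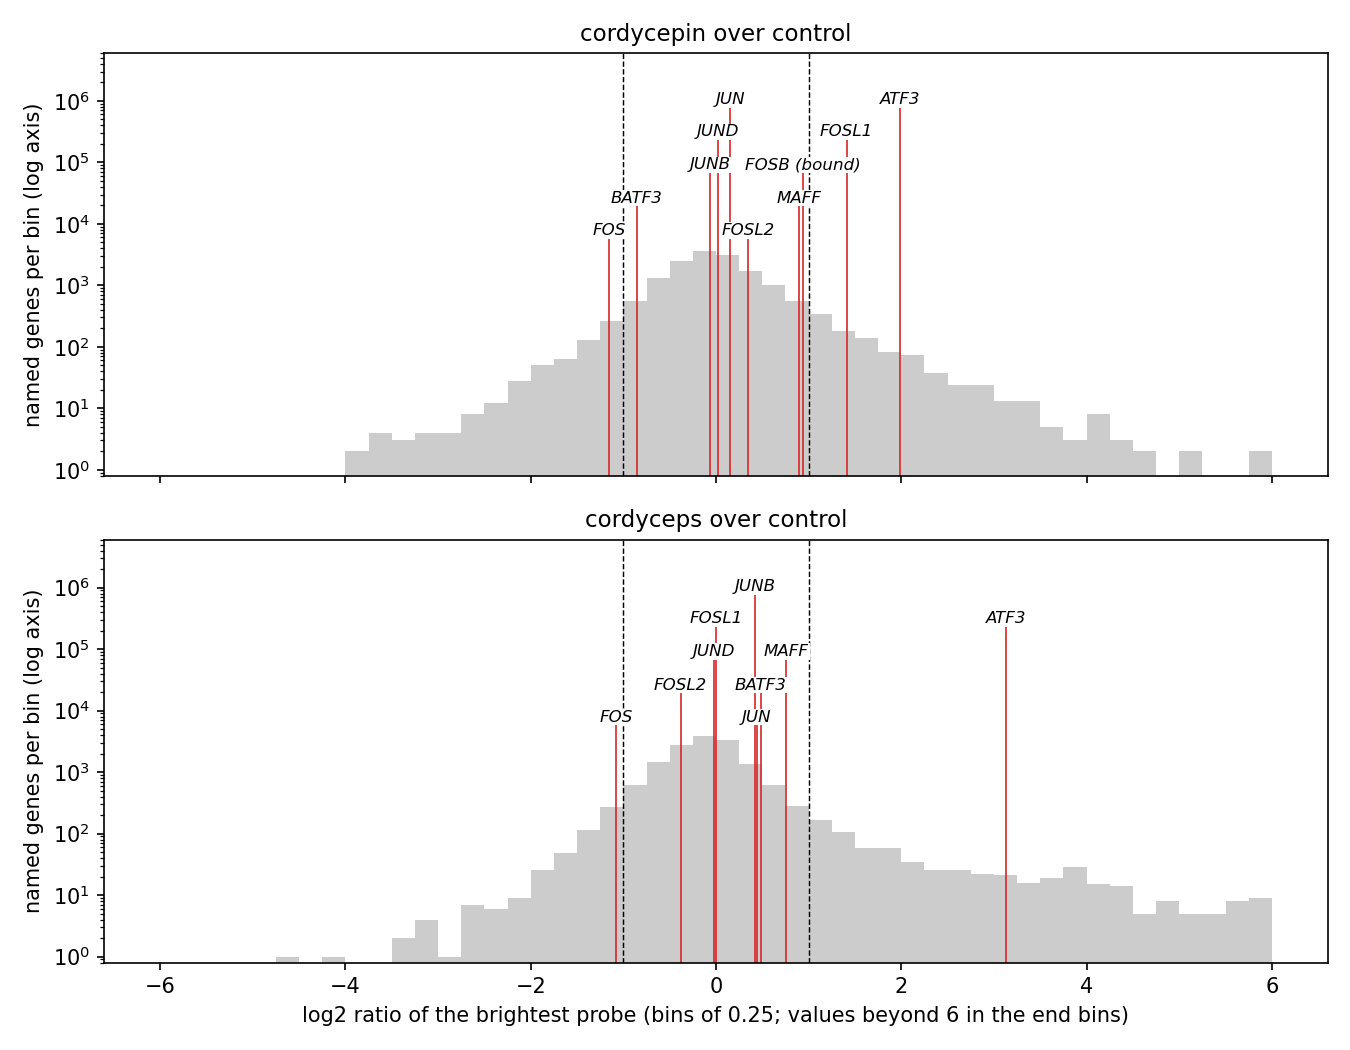
Log2 ratio of each AP-1 gene (red lines, brightest probe) over the distribution of all named genes (grey bars, genes per bin of 0.25, log axis), with cordycepin above and cordyceps below. Dashed lines mark 2-fold, and only the grey bars are read against the vertical axis. ATF3 lies at 1.99 and 3.13 and FOS at -1.15 and -1.08, and FOSL1 lies beyond the line with cordycepin alone.

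ATF3, a stress-induced bZIP protein that pairs with JUN proteins and represses transcription as a homodimer, gave the largest ratio of the 10 genes in both comparisons. Its brightest probe, A_23_P34915, had a signal of 517 ± 51.9 in the control, 1772 ± 177 with cordycepin and 4542 ± 454 with cordyceps. The 3 arrays did not overlap within these errors. The log2 ratio was 1.99 with cordycepin, 3.97-fold higher, and 3.13 with cordyceps, 8.78-fold higher. Of all genes, 1.35% and 0.936% were as high or higher.

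The other ATF3 probes did not all follow. Probe A_24_P33895 had a signal of 6.33, not well above background, in the control, 42.1 ± 7.28 with cordycepin and 92.2 ± 13.4 with cordyceps. With the respective treatment it was 2.62-fold and 4.94-fold above the lowest signal detected on the control array, after scaling. Probe A_33_P3214105 had signals of 105 ± 11.3, 183 ± 19.0 and 377 ± 38.5, with log2 ratios of 1.01 and 1.85. This probe lies in the corner that stood apart on the cordyceps array, where the 250 measured probes around it had a median log2 ratio of 0.68. The part of that neighbourhood in its cordyceps ratio was not tested.

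The remaining ATF3 probe, A_33_P3214096, was not higher with either treatment. Its signal was 171.5 ± 17.8 in the control, 147 ± 15.8 with cordycepin and 121 ± 15.3 with cordyceps, and its log2 ratios were -0.01 and -0.50. With cordycepin, 3 of the 4 ATF3 probes were called higher. Over all 13 probes of the 10 genes, 4 were called higher and 1 lower with cordycepin, where 7.07% and 3.62% of all probes were. With cordyceps, 3 were called higher and 1 lower of the 12 that gave a ratio, where 5.21% and 3.21% were. All 3 higher ones were ATF3 probes, 1 of them in the corner that stood apart. Probes of 1 gene are no separate members, so these counts by probe describe mainly ATF3.

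**Figure D3:**
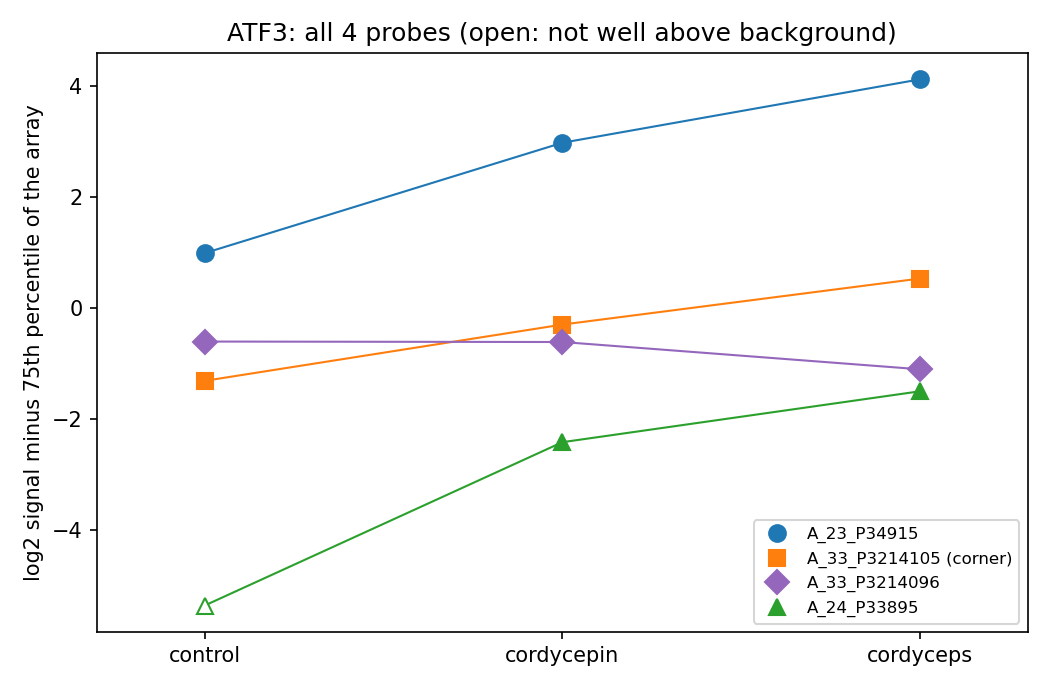
Log2 signal minus the 75th percentile of the array for the 4 ATF3 probes on the 3 arrays. The open point is not well above background, and lines join the values of 1 probe. The probes A_23_P34915, A_33_P3214105 and A_24_P33895 were lowest in the control and highest with cordyceps, whereas A_33_P3214096 went from -0.60 to -0.61 and -1.10.

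BATF3, a small bZIP protein without an activation domain of its own that pairs with JUN proteins and is best known from dendritic cells, went in opposite directions. Its signal was 1115 ± 112 in the control, 531 ± 53.3 with cordycepin and 1561 ± 156 with cordyceps. The log2 ratio was -0.86 with cordycepin, 1.81-fold lower, and 0.49 with cordyceps, 1.40-fold higher. Neither reached 2-fold, although both exceeded the spread between probes. With median scaling, the cordycepin ratio was -1.12 and BATF3 was called. BATF3 and ATF3 lie on the same chromosome with 3 annotated genes between them, of which the only protein-coding one, GARIN4, was not well above background on any array.

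MAFF, a small MAF protein that also lacks an activation domain and pairs with NRF2 and related factors, was higher on both treated arrays without reaching 2-fold. Its signal was 435 ± 43.8 in the control, 699 ± 70.1 with cordycepin and 737 ± 74.2 with cordyceps. Its log2 ratios were 0.90, 1.86-fold higher, and 0.76, 1.69-fold higher. Of all genes, 7.14% and 5.87% were as high or higher. With median scaling, MAFF was called with cordyceps, at 1.03.

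**Figure D4:**
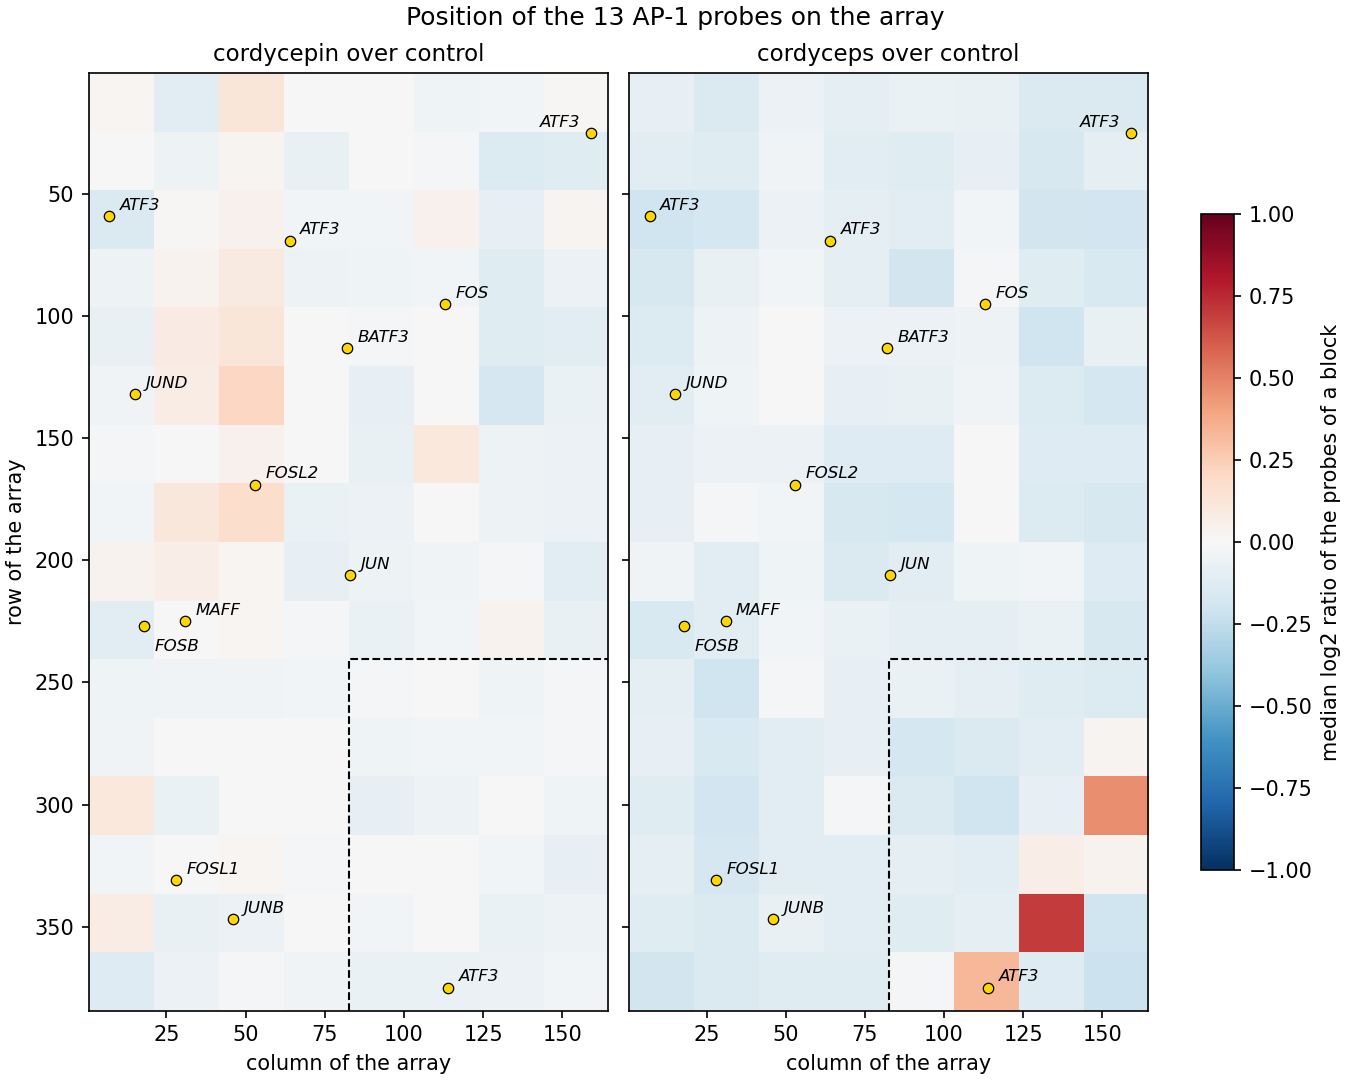
Positions of the 13 AP-1 probes (yellow points) on the array, over the median log2 ratio of the probes in each block (colour) for cordycepin and cordyceps against control. The dashed lines bound the corner that stood apart on the cordyceps array. It holds 1 of the 13 probes, an ATF3 probe that is not the brightest.

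Outside that corner, the surroundings of the AP-1 probes showed no such shift. Around the other 12 probes, within 10 rows and columns, the median log2 ratio of the neighbours lay between -0.14 and 0.14 with cordycepin and between -0.19 and -0.04 with cordyceps. Leaving out the corner before scaling kept the log2 ratio of ATF3 called and brought FOS with cordyceps to -0.97.

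Cordyceps and cordycepin were then compared directly, a comparison added after the data had been seen and made at different doses of different preparations. BATF3 was 2.53-fold and ATF3 2.21-fold higher with cordyceps than with cordycepin, at log2 ratios of 1.34 and 1.14. FOSL1 was 2.65-fold lower, at -1.41. Thus 2 of 10 genes were called higher, where 5.57% of 15482 genes were, and 1 lower, where 7.75% were. Outside the corner, 4.1% of 12544 genes were called higher and 7.82% lower. The spread of 1 probe's ratio was 0.28 here. FOSL2 was 1.66-fold lower, at -0.73, and JUNB was at 0.49 and JUN at 0.29. FOS was at 0.07, JUND at -0.05 and MAFF at -0.14, all within the spread between probes. FOSB gave no fold.

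**Figure D5:**
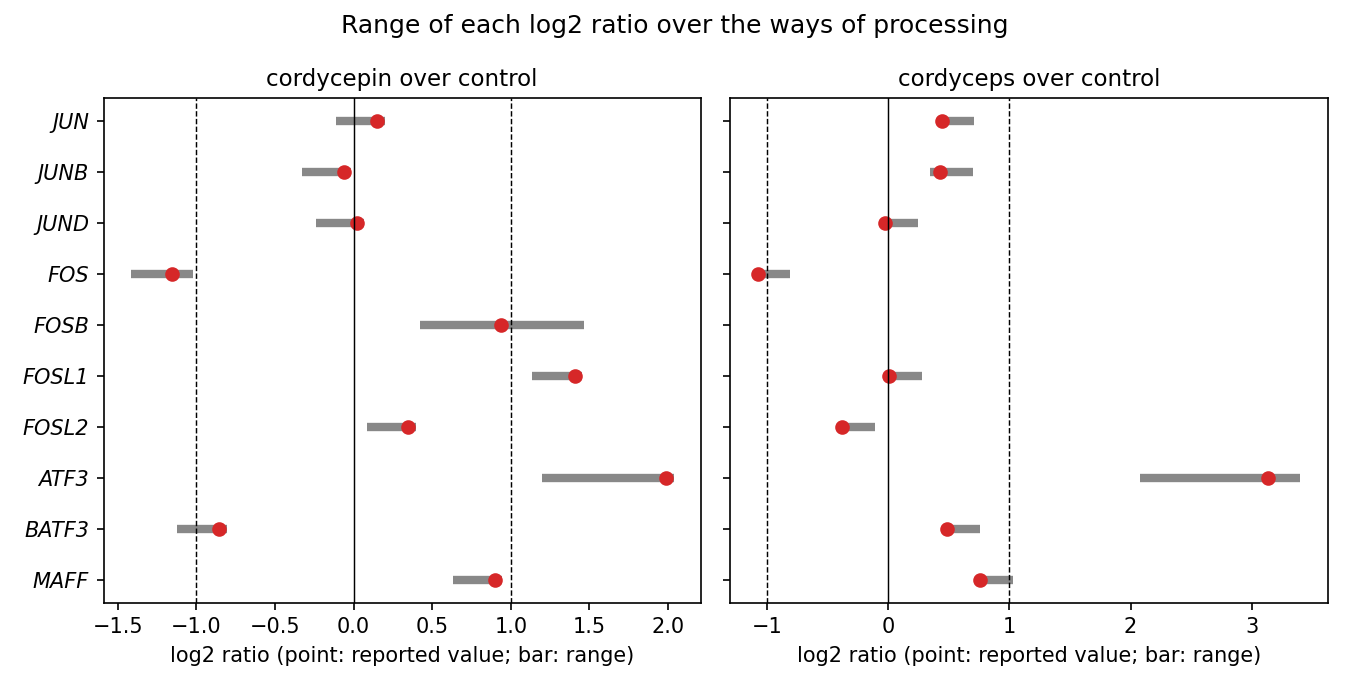
Log2 ratio of each AP-1 gene as reported (red point) and its range over the ways of processing (grey bar), with cordycepin and cordyceps against control. Dashed lines mark 2-fold, and FOSB gives no ratio with cordyceps. The bars of ATF3 run from 1.20 to 2.04 and from 2.08 to 3.40, where the low ends come from the median over its probes. The bar of FOS with cordyceps crosses the line, from -1.08 to -0.81.

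Other bZIP genes that can pair with AP-1 proteins formed a list of 19. With cordycepin, 17 gave a ratio, of which 1 was called higher and 0 lower, at a median log2 ratio of -0.05. This is near the share of all genes, 5.95% higher and 3.57% lower. The gene called was DDIT3, which encodes CHOP, a factor of the endoplasmic reticulum stress response. Its signal was 482 in the control, 1038 with cordycepin and 9213 with cordyceps, and its log2 ratios were 1.32 and 4.26. With cordyceps, 4 of 18 were called higher and 1 lower, where 4.19% and 3.15% of all genes were, at a median of 0.41. Among these, NFE2, a partner of small MAF proteins in blood cells, was at -1.10. Of the genes called higher, DDIT3 had its brightest probe outside the corner of the array. The others, NFE2L2 (which encodes NRF2), NFE2L1 and ATF2, a partner of JUN, had theirs in that corner. NFE2L1 and ATF2 were at 1.75 and 1.83, and NFE2L2 had signals of 4.70 and 1039 in the control and cordyceps arrays, the former not well above background. Outside the corner, 1 of 12 was called higher and 1 lower with cordyceps, where 2.66% and 3.15% of all genes there were.

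Kinases and factors that regulate FOS and JUN transcription formed a list of 20, of which 19 had a probe. With cordycepin, 0 of 19 were called in either direction, where 5.95% of all genes were called higher and 3.57% lower, so few calls would be seen in a list of this size at the share of all genes. The median log2 ratio was 0.00. They include MAPK8, which encodes JNK1, and SRF, the serum response factor. With cordyceps, 1 of 19 was called higher, ATF2 in the corner, and 0 lower, where 4.19% and 3.15% of all genes were, at a median of -0.08. Outside the corner 0 of 13 were called, where 2.66% of all genes there were called higher and 3.15% lower.

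Genes known to respond to AP-1 went both ways with cordycepin. Of 23 listed, 20 gave a ratio. Of these, 3 were called higher, where 5.95% of all genes were, and 3 lower, where 3.57% were, at a median log2 ratio of 0.22. The higher ones encode cytokines. IL6 had a signal of 195 in the control and 557 with cordycepin, at 1.73. CCL2, a chemokine for monocytes, went from 4213 to 9590, at 1.40. CSF2, which encodes GM-CSF, was not well above background in the control and had a signal of 89.3 with cordycepin. That was 5.55-fold above the lowest signal detected on the control array, after scaling. The lower ones were CD44, a hyaluronan receptor, at -1.49, IL11, a cytokine of the IL6 family, at -1.40, and HMOX1, heme oxygenase, at -1.05.

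With cordyceps, 5 of 20 AP-1 responsive genes were called higher, where 4.19% of all genes were, and 0 lower, where 3.15% were, at a median of 0.12. IL6 was at 2.52 with a signal of 1118, IL11 at 1.61 with 5431, and CXCL8, a chemokine for neutrophils, at 1.41 with 2905 against 1092 in the control. MMP1, a collagenase, was at 1.09 with a signal of 63.1 against 29.6. MMP13, another collagenase, had its brightest probe in the corner, with a signal of 846 where the control was not well above background. Outside the corner, 4 of 17 were called higher and 0 lower, where 2.66% and 3.15% of all genes there were. CCL2, CD44 and HMOX1 were not called with cordyceps, at -0.42, -0.25 and -0.38. IL11 was thus lower with cordycepin and higher with cordyceps, with signals of 1773, 580 and 5431 on the 3 arrays.

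Genes of AP-1 protein turnover and co-regulation formed a list of 12. With cordycepin, 0 were called higher and 1 lower, near the share of all genes (5.95% and 3.57%), at a median log2 ratio of -0.10. That gene was DET1, which takes part in the ubiquitin ligase that degrades JUN, with signals of 1177, 462 and 1715 in the control, cordycepin and cordyceps arrays and log2 ratios of -1.13 and 0.54. With cordyceps, 1 was called higher and 0 lower, again near the share of all genes (4.19% and 3.15%), at a median of 0.05. It was TRIB3, a stress-induced pseudokinase, at 2.15 in the corner, and outside the corner 0 of 8 were called, where 2.66% and 3.15% of all genes there were.

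Over the 4 lists, 22 genes had a second measured probe. With cordycepin, 14 of them had one whose ratio was opposite in sign to that of the brightest probe, against 34.7% of 4131 named genes. Among them were ATF2, CREB1, ELK1, ELK4, LIF, MAP2K4, MAPK8, MAPK9, MEF2D, NCOR1, NRL and VEGFA, and none of the 14 was called with cordycepin. With cordyceps, 0 of 22 did, against 28.9% of 4021.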

How the data were processed

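RNA of A549 cells was measured on 3 one-colour Agilent arrays, 1 per condition. The authors deposited spot intensity values from Agilent Feature Extraction 11.5.1.1, background-subtracted by the software and not scaled between arrays, with a table of the series that matched the mean processed intensity of each probe within 0.1% for 99.9% of probes on each array. The study's methods name Cy3 and Cy5 for the control and cordycepin RNA, whereas the files hold Cy3 alone, so ratios were taken between arrays. They also name GeneSpring for normalization.

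Control spots and spots flagged as outliers (106, 80 and 63 on the control, cordycepin and cordyceps arrays) were left out. The log2 intensity was reduced by the 75th percentile of each array, and spots of a probe were averaged. Detection required 50% or more of a probe's spots to be well above background. Where 1 of 2 arrays detected it, the ratio is a bound against the higher of the lowest detected signal on the dim array and the probe's own. Such a bound leaves out the error of the spots. Names were found for 31104 of 58201 probes by transcript accession in RefSeq's GRCh38.p14 annotation. The array design uses hg19, so no gene coordinates are given. Each gene took the value of the probe with the highest mean over the 3 arrays, its brightest.

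The members and lists were chosen with earlier results of these data known. Named are all 10 members with every probe and, of the lists, genes called at 2-fold, up to 5 in each direction with each treatment, and those whose other probes oppose the brightest, some of which are not reported here. Normexp used limma 3.58.1 in R 4.3.3, with an offset of 50. Other steps used Python 3.11.15, numpy 2.4.6 and pandas 2.3.3. The calling step was run on simulated data with changes set beyond the 2-fold threshold and no bounds, which checks the code and not the results. Alternatives were other scalings, background correction, detection, probe summaries, thresholds and leaving out the corner. The number of arrays limits the precision.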

Additional observations from a re-analysis of the deposited data

How the results depend on the processing

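The log2 ratios of FOS, ATF3, BATF3, FOSL2, JUNB and MAFF against the control kept their sign under all 9 alternative ways of computing them, as did that of FOSL1 with cordycepin. FOSB with cordycepin also kept its sign but ranged from 0.42 to 1.47. JUN with cordycepin was -0.11 with median scaling, and the ratios of JUND, which as reported lie within the spread between probes, changed sign under some alternatives. Median scaling moved the median of all genes by -0.26 with cordycepin, 0.22 with cordyceps and 0.51 between the treated arrays. It brought the genes lower with cordycepin to 2, where 7.41% of all genes were, and those higher with cordyceps to 2, where 6.17% were. Under median scaling, the genes lower with cordyceps came to 0, where 1.33% of all genes were. Those lower with cordyceps than with cordycepin also came to 0, where 2.96% were. Taking the 75th percentile only over probes that all arrays detected and leaving out the corner each brought the genes lower with cordyceps to 0. FOS was then at -0.99 and -0.97, and 2.38% and 2.2% of all genes were lower. Without a detection filter, 2 genes were higher with cordyceps, where 4.33% of all genes were. By the median over a gene's probes, ATF3 was at 1.20 with cordycepin and 2.08 with cordyceps. By the same median, 1 gene was higher with cordyceps than with cordycepin, and no share of all genes was computed there. At 1.5-fold, 4 genes were higher and 2 lower with cordycepin, where 13.3% and 11.8% of all genes were. At that threshold, 2 were higher with cordyceps, where 8.3% were, and 2 were lower with cordyceps than with cordycepin, where 16.9% were. At 3-fold, 1 was higher and 0 lower with cordycepin, where 2.45% and 0.936% of all genes were. With cordyceps, 0 were lower at 3-fold, where 0.545% were. Between the treated arrays, 0 differed either way at 3-fold, where 2.39% of all genes were higher and 2.62% lower with cordyceps. The cause was not tested beyond what each setting changes by its construction. The other 49 counts were within 1.5 times those reported. No paired analysis was possible because each condition has 1 array.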
